A study of Mus musculus with 108 samples.

Results

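The genes described here are 10 mouse genes selected on the size of their measured difference in liver RNA between the strains 129S1/SvImJ (129) and C57BL/6J (B6), very large on both diets: Gm4737, Myom2, Urml, Ctse, Wdr72, Mme, Zfp982, Nlrp12, Cd1d2 and Obp2a. They are 10 of 25125 gene symbols in the expression tables, and 17 of 42361 RefSeq transcripts. The series holds 108 RNA-seq libraries from livers of male mice in 6 sets of 18. Each set has 3 replicates at each of the zeitgeber times (ZT) 2, 6, 10, 14, 18 and 22, counted in hours since the lights came on. One set was labelled Errg-Cre and came from 129 mice on the high fat and sucrose diet D12492i (HFD). Another was labelled Esrrg LKO, from mice on the same diet with diet-induced obesity; the series' design calls the knockout hepatocyte-specific. The titles of the Esrrg LKO libraries say B6, and their strain field holds a name that mixes both strains. The wild-type sets were 129 on HFD, B6 on HFD, 129 on normal chow and B6 on normal chow. Neither the driver of the Cre nor its controls are described in the labels, and 18 unlabelled columns were not analysed here. Nothing in the labels says whether replicates came from different animals, so the p-values reflect only the spread among these libraries, which may be technical. Levels are read numbers per transcript after the authors' quantile normalisation, called normalised reads below. All 10 hepatocyte markers listed had medians above 1 in every set. In bulk liver, fewer cells of a type and less RNA per cell cannot be told apart.

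Inbred strains are homozygous at nearly every locus and carry fixed differences in their DNA. The mouse reference genome mm10, used for these tables, is the B6 genome, so reads of 129 were aligned to the sequence of the other strain; what this does to each gene was not tested. The 10 genes have unrelated roles. Myom2 encodes M-protein, a component of the M-band of striated muscle. Ctse encodes cathepsin E, an intracellular aspartic protease, and Mme encodes neprilysin, a membrane metallopeptidase that cleaves small peptides. Nlrp12 encodes a NOD-like receptor of innate immunity, and Cd1d2 belongs with Cd1d1 to the CD1d genes, whose products present lipids to natural killer T cells. Obp2a encodes an odorant-binding protein of the lipocalin family, Wdr72 a WD-repeat protein known from tooth enamel formation, and Zfp982 a zinc finger protein. Urml is annotated by RefSeq as a long noncoding RNA. Gm4737 is a predicted coding gene that is a near copy of Ahcy, the S-adenosylhomocysteine hydrolase of the methionine cycle.

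On mm10, as the tables give it, Ctse lies at chr1:131638314-131675507 and Obp2a at chr2:25700074-25703326, both on the plus strand. Mme (chr3:63296095-63383713) and Cd1d2 (chr3:86986586-86989532) share chromosome 3, also on the plus strand. Zfp982 (chr4:147492417-147516064), Myom2 (chr8:15057653-15133419) and Wdr72 (chr9:74110334-74283203) are on the plus strand, while Nlrp12 (chr7:3221510-3249740), Urml (chr13:68228436-68234731) and Gm4737 (chr16:46152991-46155077) are on the minus strand. The values are those of 1 transcript of each gene, the one of highest mean in the wild-type table. The rhythm of Urml in Esrrg LKO livers was fitted on its other transcript, whose mean there was slightly higher (275.5, against 273.9 normalised reads). Mme has 4 transcripts, Cd1d2 has 3, Urml and Zfp982 have 2 each and the others have 1. Within a library the transcripts of a gene differed by a median of 0.169 (Zfp982) to 1.68 (Urml) normalised reads, and where those of Mme differed most they stood between 671.6 and 679.6.

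For 2 of the genes a near copy stands in the same genome, and the sequences of the pairs are shown because they set how well reads can be told apart. Gm4737, on chromosome 16, aligned to Ahcy, on chromosome 2, over 2086 bases of transcript with 7 differing bases, and over the 1296 coding bases of Ahcy 4 bases differed. The longest identical run was 575 bases. The 4 coding differences fall into 2 windows of 61 bases, which start at transcript positions 494 and 1085 of Gm4737. They are printed 5′ to 3′ on the sense strand from GENCODE M21 transcripts (GRCm38, the build of mm10), with the differing bases in capitals.
Gm4737 window 1: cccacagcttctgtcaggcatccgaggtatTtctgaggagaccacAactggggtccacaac
Ahcy window 1: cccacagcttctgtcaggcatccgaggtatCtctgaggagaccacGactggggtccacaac
Gm4737 window 2: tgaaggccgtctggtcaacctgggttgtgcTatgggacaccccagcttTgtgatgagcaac
Ahcy window 2: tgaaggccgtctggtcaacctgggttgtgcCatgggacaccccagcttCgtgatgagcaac
Of all 50-base words in the Gm4737 transcript, 90.4% occur also in Ahcy transcripts. Cd1d2 and Cd1d1 lie side by side on chromosome 3. They aligned over 1239 bases with 46 differing bases, 33 of them in the 1008 aligned coding bases, and the longest identical run was 245 bases. A stretch of 45 bases at the start of the coding part and one window of 61 bases show how the differences are spread, again with differing bases in capitals.
Cd1d2 start: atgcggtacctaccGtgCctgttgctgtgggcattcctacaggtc
Cd1d1 start: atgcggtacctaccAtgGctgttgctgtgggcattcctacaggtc
Cd1d2 window: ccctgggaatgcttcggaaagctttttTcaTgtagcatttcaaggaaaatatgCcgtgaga
Cd1d1 window: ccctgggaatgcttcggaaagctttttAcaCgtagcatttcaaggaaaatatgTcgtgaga
In Cd1d2 31.0% of the 50-base words occur in Cd1d1. The share of words found in any other gene was 11.9% for Zfp982, 11.7% for Obp2a (all of it in Obp2b), 0.522% for Mme, 0.421% for Myom2, 0.293% for Nlrp12, and 0 for Ctse and Wdr72. Urml has no transcript in GENCODE M21 and was not compared.

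**Figure D1:**
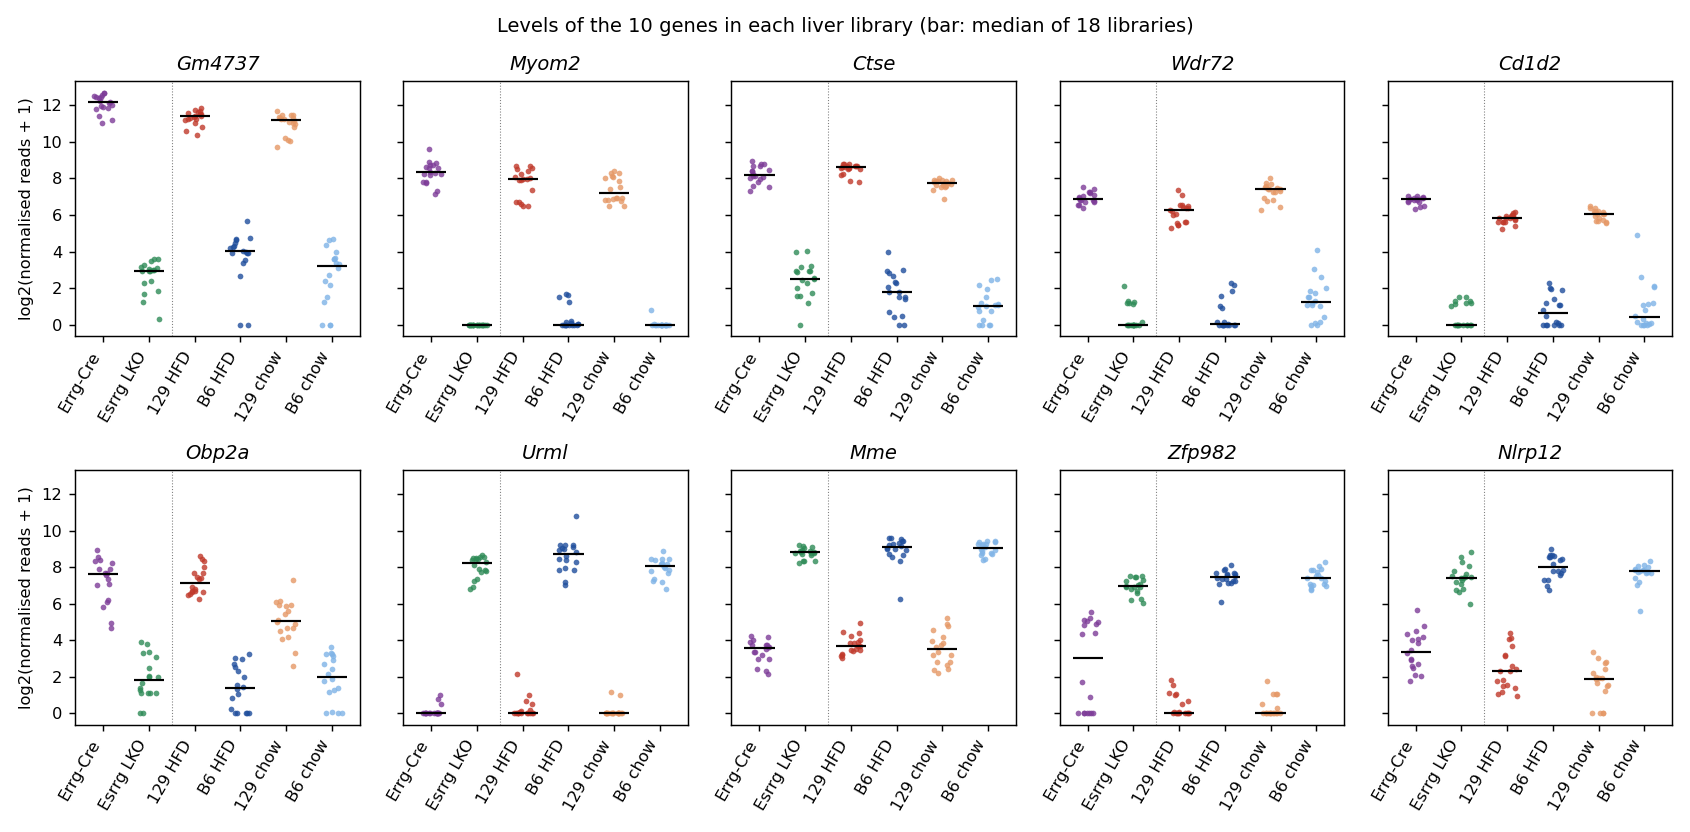
Levels of the 10 genes as log2(normalised reads + 1), one point per library, with the median of 18 libraries as a bar; sets left of the dotted line come from tables normalised apart from the wild-type table. The upper row and Obp2a hold the 6 genes that were higher in 129, and the other panels of the lower row the 4 that were higher in B6.

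Of the 10 genes, 6 were higher in 129 (Gm4737, Myom2, Ctse, Wdr72, Cd1d2 and Obp2a) and 4 were higher in B6 (Urml, Mme, Zfp982 and Nlrp12). Over all genes tested, 19.0% were higher and 13.3% lower in 129 on HFD, and 25.4% higher and 27.5% lower on chow, at an adjusted p below 0.05. The strain difference chose the 10 genes, so it is given as a description with no test, and nothing is read from these shares. For 9 of the 10 no library of one strain overlapped any library of the other, over 36 libraries each; Obp2a was the exception. The same was true of 63 of the 11287 genes with a mean of at least 10 normalised reads (0.558%). Ranked by the smaller of the HFD and chow differences (same sign on both diets), the 10 genes held ranks between 1 (Urml) and 51 (Obp2a). Genes of like size that are not among the 10 include Mup11 (rank 3), Serpina3c (rank 7) and Mup14 (rank 8), which belong to gene clusters with many similar members.

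Gm4737 had the highest level. Its lowest, median and highest values were 1308, 2703 and 3683 normalised reads in 129 on HFD, against 0, 15.1 and 50.4 in B6 on HFD. On chow they were 839.7, 2337 and 3266 in 129, against 0, 8.24 and 24.7 in B6. B6 libraries were thus low, but only 5 of 36 stood at 0 and 21 of 36 were above 10.

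Myom2 had 88.5, 246.5 and 417 normalised reads in 129 on HFD (lowest, median and highest), against 0, 0.006 and 2.21 in B6 on HFD. On chow it had 89.8, 148 and 338 in 129, against 0, 0 and 0.755 in B6. No B6 library reached 3 normalised reads, and 21 of 36 stood at 0. The other muscle markers give the context: of 17 such genes, Ckm, Acta1, Myh1, Pvalb and Mb had medians under 0.01 normalised reads in all 4 wild-type sets. Neb and Ttn were the only ones with a median above 3 in these sets, and Neb had 745.6 in 129 on HFD, against 400.3 in B6 on HFD, and 638.3 in 129 on chow, against 306.2 in B6 on chow. The 17 markers summed to 464.3 to 1030.1 in 129 on HFD, against 207.5 to 720.2 in B6 on HFD. Neb made up most of these sums, whose medians were 775.8 in 129 and 424.8 in B6. The part of the 17 markers in the level of Myom2 was not tested.

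Ctse had 220.5, 388 and 443.5 normalised reads in 129 on HFD, against 0, 2.5 and 14.9 in B6 on HFD. On chow the values were 116, 216.5 and 262 in 129, against 0, 1.05 and 4.58 in B6. Ctse is known from the stomach, and of the other stomach markers Gkn1, Gkn2, Tff2 and Muc5ac had medians of at most 0.02 in the 4 wild-type sets. Tff1 had medians of 4.0 in 129 on HFD, against 3.91 in B6 on HFD, and 3.42 in 129 on chow, against 2.37 in B6 on chow, and Atp4a had medians between 0.0335 and 3.22. None of the stomach markers reached the filter for testing. Wdr72 had 38.5, 75.9 and 166 normalised reads in 129 on HFD, against 0, 0.0095 and 3.94 in B6 on HFD. In chow-fed mice it had 76.2, 169.7 and 262 in 129, against 0, 1.37 and 15.8 in B6.

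Cd1d2 had 36.4, 55.5 and 69.6 normalised reads in 129 on HFD, against 0, 0.548 and 3.8 in B6 on HFD. On chow it had 45.9, 65.9 and 89.6 in 129, against 0, 0.318 and 29.4 in B6. The value of 29.4 came from 1 library, ZT14 replicate 3 of B6 on chow, where the other 2 transcripts of Cd1d2 stood at 0 and 1.66. That library also held the highest B6 value of Wdr72, and 14.8% of the genes tested were under 1 normalised read in it, against a median of 0.297% over the wild-type libraries. Without it and the 2 other libraries of that kind, the highest B6 values were 5.13 for Cd1d2 and 7.31 for Wdr72.

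Obp2a had 74.3, 142 and 385.5 normalised reads in 129 on HFD, against 0, 1.62 and 8.54 in B6 on HFD. Chow values were 5.08, 31.9 and 155 in 129, against 0, 3.01 and 11.5 in B6. The strains parted completely on HFD and overlapped on chow.

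Among the genes higher in B6, Urml had 0, 0 and 3.41 normalised reads in 129 on HFD, against 127, 429 and 1781.5 in B6 on HFD. On chow it had 0, 0 and 1.29 in 129, against 110.4, 271 and 471 in B6. Urml stood at 0 in 25 of the 36 libraries of 129. Zfp982 had 0, 0.028 and 2.61 normalised reads in 129 on HFD, against 68, 176 and 281 in B6 on HFD. On chow its values were 0, 0 and 2.46 in 129, against 107.8, 170.2 and 307 in B6. It was at 0 in 18 of the 36 libraries of 129.

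Mme and Nlrp12 were low in 129 rather than empty. Mme had 7.3, 11.7 and 30.4 normalised reads in 129 on HFD, against 75.7, 544 and 765 in B6 on HFD. On chow it had 3.54, 10.5 and 36.9 in 129, against 339, 529 and 702 in B6. No library of 129 stood at 0 for Mme. Nlrp12 had 0.904, 3.9 and 19.9 normalised reads in 129 on HFD, against 107, 258 and 517 in B6 on HFD. On chow the values were 0, 2.73 and 9.13 in 129, against 47, 219.6 and 324 in B6. Only 2 of 36 libraries of 129 stood at 0 for Nlrp12. Nlrp12 is known from myeloid cells, and 6 of 9 Kupffer cell markers were lower in 129 on both diets (15.4% of all genes tested passed on both diets with 1 sign, in either direction). Of the 4 neutrophil markers tested, 0 passed for strain on either diet. Their median difference was −0.87 on HFD and 0.21 on chow. The Kupffer cell markers summed to 780.1 to 1853.2 normalised reads in 129 on HFD, against 1012.2 to 5155 in B6 on HFD, and to 480.5 to 2129.6 in 129 on chow, against 704.4 to 1822.3 in B6 on chow. The 12 neutrophil markers listed summed to 7.57 to 24.7 in 129 on HFD, against 5.77 to 21185 in B6 on HFD, with a median of 13.7 in 129 and 14.8 in B6, and Ly6g and Elane had medians of at most 0.001. Their part in the level of Nlrp12 was not tested.

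The low side was therefore not uniformly empty. Over the 10 genes and the 36 libraries of the strain with the lower level, 103 of 360 values were exactly 0 (28.6%), 164 were under 1 and 50 were above 10, of which 21 belonged to Gm4737 and 21 to Mme. Quantile normalisation gives values by rank, so a value far below 1 need not be a fraction of a read, and with sequencing depth unknown no limit of detection can be given. On the log2(value + 1) scale the differences (129 minus B6) were largest for Urml (−8.35 ± 0.15 on HFD and −7.83 ± 0.15 on chow) and Gm4737 (7.62 ± 0.26 on HFD and 8.30 ± 0.26 on chow), with the standard errors of the fit. They were smallest for Cd1d2 (4.99 ± 0.27 on HFD and 5.07 ± 0.27 on chow) and, on chow, Obp2a (3.16 ± 0.34, against 5.85 ± 0.34 on HFD). These sizes depend on the constant added: with 5 in place of 1, Urml had −6.23 on HFD and Cd1d2 3.32. The direction was the same at 6 of 6 times on both diets for each of the 10 genes, and the smallest difference at one time was 2.16, for Obp2a on chow.

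Per kilobase of transcript, the median in the higher strain was 1205 normalised reads for Gm4737, 206 for Urml, 116 for Ctse, 115 for Obp2a and 91.6 for Mme. It was 52.0 for Nlrp12, 48.3 for Myom2, 47.8 for Cd1d2, 41.9 for Zfp982 and 19.4 for Wdr72. Each gene overlapped the next in this order over its 36 libraries.

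**Figure D2:**
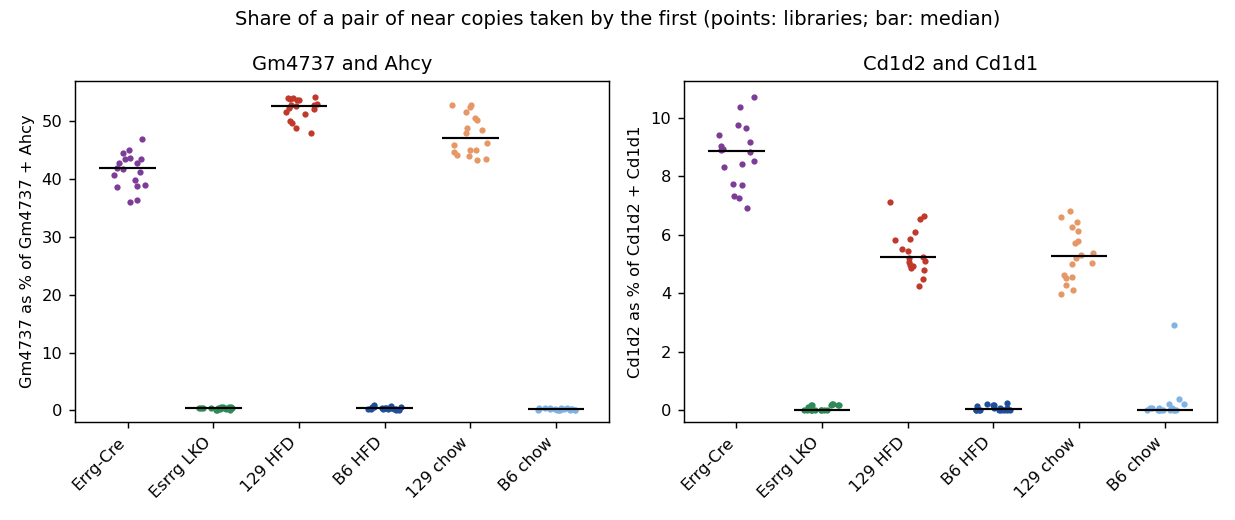
Share of the summed normalised reads of a pair that fell on Gm4737 (left, of Gm4737 + Ahcy) and on Cd1d2 (right, of Cd1d2 + Cd1d1), in percent, one point per library with the median as a bar. Gm4737 took 43.4% to 54.3% of its pair in wild-type 129 libraries and at most 1.01% in B6 libraries.

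Gm4737 and Ahcy were close to equal in 129, and Ahcy stood almost alone in B6. Gm4737 held 48.0% to 54.3% of the pair's normalised reads in 129 on HFD, against 0% to 1.01% in B6 on HFD. On chow it held 43.4% to 52.9% in 129, against 0% to 0.453% in B6. Ahcy itself had a median of 2379.5 normalised reads in 129 on HFD, against 3741.8 in B6 on HFD, and 2460.7 in 129 on chow, against 3418.8 in B6 on chow. It was lower in 129 on both diets (log2 difference −0.67 ± 0.11, adjusted p = 4.09e-06 on HFD, and −0.48 ± 0.11, adjusted p = 0.000533 on chow, limma). The sum of the pair had a median of 5061 in 129 on HFD, against 3751 in B6 on HFD, and 4642.5 in 129 on chow, against 3427 in B6 on chow. Whether reads of one copy were placed on the other was not tested.

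Cd1d2 stayed a minor member of its pair in 129: it held 4.24% to 7.13% of the normalised reads of Cd1d2 and Cd1d1 in 129 on HFD, against 0% to 0.258% in B6 on HFD. On chow it held 3.98% to 6.81% in 129, against 0% to 2.92% in B6, where the highest share came from the library with many low values. Cd1d1 was lower in 129 (−0.53 ± 0.065 on HFD, adjusted p = 1.89e-09, and −0.16 ± 0.065 on chow, adjusted p = 0.0351). The chow call was lost without any one of the replicates (adjusted p between 0.0751 and 0.17). It was also lost with no filter on low values (adjusted p = 0.0639) and with Mir6236, described below, in the fit (adjusted p = 0.452). Obp2b, the closest relative of Obp2a by sequence with 76.5% identity over 591 bases, had a median of at most 0.001 normalised reads in the wild-type sets. Ctse and Wdr72 had no relative that aligned over 500 bases or more. For Mme, Nlrp12 and Myom2 the closest were Mmel1 (66.8% identity), Nlrp3 (68.5%) and Myom1 (66.0%). For Zfp982 it was Gm13230, a transcribed pseudogene also on chromosome 4 (85.5% identity over 1305 bases). Whether reads of Zfp982 and its relatives were exchanged was not tested.

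The 3 nearest tested genes on either side of each of the 10, 57 in all because Nlrp12 has none before it, had a median absolute strain difference of 0.351 on HFD, against 0.208 over all genes tested. Of the 57, 17 passed on both diets with 1 sign (29.8%, against 15.4% of all genes tested), 9 in the direction of the gene they flank and 8 in the opposite one. Zfp984, which lies 238 kb from Zfp982 in the chromosome 4 zinc finger cluster, was lower in 129 as Zfp982 was (−3.13 ± 0.23 on HFD, adjusted p = 2.61e-17, and −3.87 ± 0.23 on chow). Myadm, 40.8 kb from Nlrp12, was lower in 129 (−1.31 ± 0.14 on HFD, adjusted p = 1.16e-11), and so was Rps3a1, a ribosomal protein gene 844 kb from Cd1d2 (−1.90 ± 0.08, adjusted p = 1.46e-27), against the direction of Cd1d2. Ribosomal protein genes have many processed copies, so the value of Rps3a1 is uncertain. Pm20d1 next to Ctse was higher in 129 by 0.74 ± 0.09 on HFD (adjusted p = 1.39e-09). The 3 nearest genes on either side of Myom2, Wdr72 and Mme differed by at most 1.06 on either diet.

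Genes of the same families or pathways gave a mixed picture. All counts in this paragraph are at an adjusted p below 0.05, which 32.3% of all genes tested reached for strain on HFD and 52.9% on chow. On both diets with 1 sign, 15.4% passed, in either direction. The medians over all genes tested were 0.05 on HFD and −0.01 on chow. Of 3 M-band and titin partners tested beside Myom2, Myom3 was higher in 129 on both diets (2.50 ± 0.33, adjusted p = 1.13e-08 on HFD, and 1.13 ± 0.33, adjusted p = 0.00359 on chow), though on chow not without replicate 1 (adjusted p = 0.0949). The chow call of Myom3 was also lost with Mir6236, described below, in the fit (adjusted p = 0.0594). Of 13 aspartic proteases and cathepsins beside Ctse, 2 were higher and 3 lower on both diets, with a list median of −0.07 on HFD and 0.17 on chow. Ren1, the renin gene, was the most different (5.11 ± 0.21 on HFD, adjusted p = 1.32e-27); 129 strains are known to carry a second renin gene, and the tables place Ren1 and Ren2 on nearly the same interval, so their reads cannot be told apart. Ctsc and Ctss, cathepsins C and S, were lower (−1.07 ± 0.13 and −1.03 ± 0.17 on HFD, adjusted p = 1.71e-09 and 1.85e-06). Of 9 NLR and inflammasome genes beside Nlrp12, 2 were lower on both diets and none higher: Naip2, a secretion system sensor (−2.20 ± 0.32 on HFD, adjusted p = 1.42e-07), and Nlrc5, an activator of MHC class I genes (−1.20 ± 0.14 on HFD, adjusted p = 4.78e-10). On chow alone, 3 of the 9 were higher in 129 and 4 lower, against 0 and 2 on HFD. The median of these 9 was −0.32 on HFD and −0.21 on chow. The lower Kupffer cell markers given above moved in the same direction as Naip2 and Nlrc5, and their part was not tested.

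Beside Mme, 5 surface peptidases were tested, with Dpp4 slightly higher (0.23 ± 0.054 on HFD, adjusted p = 0.000429) and Ide, an insulin-degrading protease, slightly lower (−0.34 ± 0.081 on HFD, adjusted p = 0.000625). Of 8 genes of CD1d presentation and natural killer T cells, 1 was higher and 2 lower on both diets (15.4% of all genes tested passed on both diets with 1 sign): Zbtb16, a transcription factor of these cells, was higher (1.03 ± 0.20 on HFD, adjusted p = 3.41e-05), and B2m, the light chain of CD1d, was lower (−0.20 ± 0.071 on HFD, adjusted p = 0.0231) along with Cd1d1. Of 10 lipocalins beside Obp2a, 2 were higher and 1 lower on both diets: Orm3, an acute phase lipocalin (1.99 ± 0.41 on HFD, adjusted p = 9.54e-05), Rbp4, the retinol carrier (0.82 ± 0.094, adjusted p = 2.94e-10), and Mup20, a major urinary protein (−2.12 ± 0.17, adjusted p = 1.5e-15). Of 14 V-ATPase and rabconnectin genes beside Wdr72, 1 passed on both diets with 1 sign, Atp6v0a1 (0.34 ± 0.097 on HFD, adjusted p = 0.00533). The 3 tested zinc finger genes of the Zfp982 cluster were all lower in 129 on HFD and 2 of them also on chow, where Zfp991 had −0.43 ± 0.19 (adjusted p = 0.0496). That call was lost with no filter on low values (adjusted p = 0.0831), with transcripts summed (adjusted p = 0.0533), when chow was fitted alone (adjusted p = 0.0806), without the 3 libraries with many low values (adjusted p = 0.106) and with Mir6236, described below, in the fit (−0.063, adjusted p = 0.93). Leaving out 1 replicate ended the HFD calls of B2m (any replicate, adjusted p up to 0.292), Orm3 (replicate 1, adjusted p = 0.0633) and Atp6v0a1 (replicate 2, adjusted p = 0.0631). It also ended the chow calls of Zfp991 and Dpp4 (any replicate), Atp6v0a1 (replicate 2 or 3), Zbtb16 (replicate 3, adjusted p = 0.0537) and Rbp4 (replicate 3, adjusted p = 0.212). With Mir6236 in the fit, the chow calls of Ide (adjusted p = 0.181), Dpp4 (0.0644), Atp6v0a1 (0.496) and Zbtb16 (0.102) were lost too. That of Dpp4 was also lost with transcripts summed (adjusted p = 0.0752) and without the 3 libraries with many low values (adjusted p = 0.0745). The B6 strain used here is known for a deletion in Nnt, the mitochondrial transhydrogenase, and Nnt had a median of 733.7 normalised reads in 129 on HFD, against 344.3 in B6 on HFD, and 719.6 in 129 on chow, against 258.5 in B6 on chow.

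Across the 72 wild-type libraries the genes most like each member were other genes that divide the strains. By Pearson correlation of log2(value + 1), BC018473 was the closest to Myom2 (r = 0.97), Trim12a to Urml (r = 0.974), Gm1821 to Ctse (r = 0.959) and to Obp2a (r = 0.874), and Gdpd3 to Gm4737 (r = 0.95). Mettl7a3 was the closest to Wdr72 (r = 0.963) and to Cd1d2 (r = 0.966), Cd59a to Mme (r = 0.967), 4930412C18Rik to Zfp982 (r = 0.979) and Rps3a1 to Nlrp12 (r = 0.952). All points share the split into 36 libraries per strain, so these values describe that split.

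**Figure D3:**
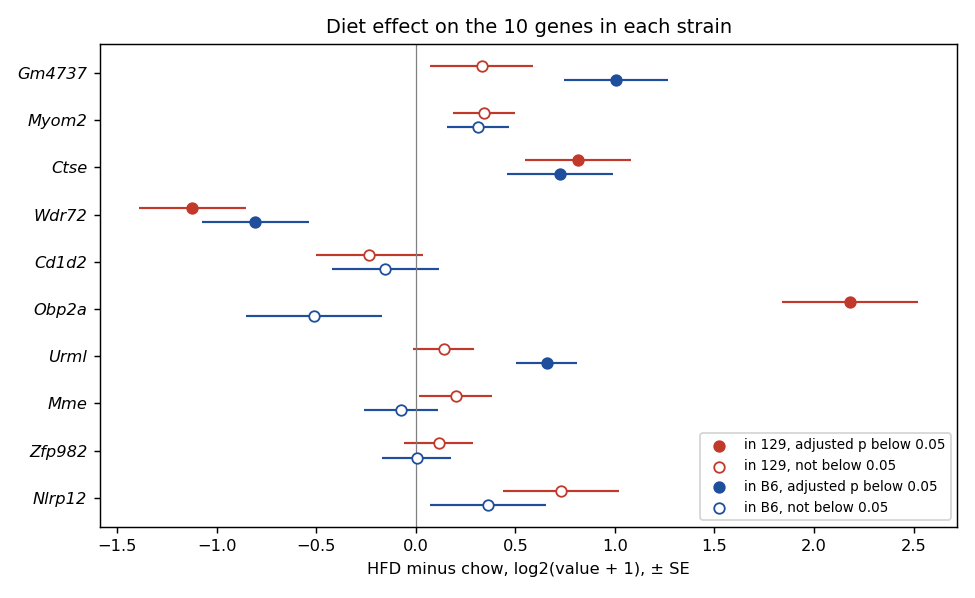
Diet effect (HFD minus chow) on the 10 genes in 129 (red) and in B6 (blue), on the log2(value + 1) scale with its standard error; filled points have an adjusted p below 0.05. Obp2a in 129 is farthest to the right, and Wdr72 is the only gene left of 0 with filled points in both strains.

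The diet contrast within a strain was not used to pick the genes, while the difference of diet effects between strains equals that of the HFD and chow strain differences, which the choice used, and is given as a description with no test. In 129, 3 of the 10 passed: Obp2a and Ctse rose on HFD (10.9% of all genes tested rose) and Wdr72 fell (7.45% fell). In B6, 4 of the 10 passed (60.2% of all genes tested did, 27.5% higher and 32.7% lower): Urml rose, Gm4737 rose at low levels, and Ctse and Wdr72 passed at near-zero levels. Gm4737 averaged 16.6 normalised reads in B6 on HFD and 8.86 in B6 on chow. Ctse averaged 3.49 normalised reads in B6 on HFD and 1.41 in B6 on chow, and Wdr72 0.788 in B6 on HFD and 2.58 in B6 on chow. Both reached the filter, a mean of 10 over the 72 libraries, only through their levels in 129, so nothing is read from their calls in B6. Myom2, Cd1d2 and Obp2a in B6, and Urml, Zfp982 and Nlrp12 in 129, also reached it only through the other strain. They are among the 10 counted.

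Obp2a in 129 had the largest diet effect of the 10. Its median was 142 normalised reads in 129 on HFD and 31.9 in 129 on chow, and the lowest HFD library (74.3) lay below the highest chow library (155), so the sets overlapped. The rise was 2.18 ± 0.34 on the log2 scale (adjusted p = 3.02e-06) and had the same sign at 6 of 6 times. In B6 the difference was −0.51 ± 0.34 (adjusted p = 0.195), at levels of 0 to 8.54 on HFD and 0 to 11.5 on chow; without replicate 3 it was −0.84 (adjusted p = 0.0365). The B6 means (2.61 on HFD and 4.17 on chow) lay under the filter of 10, which Obp2a reached only through 129. The diet effect in 129 minus that in B6 was 2.69 ± 0.48 and is a description. Of the 10 genes, 1 (Obp2a) lay past 0.05 for this difference, against 34.4% of all genes tested (20.1% in the higher direction), and nothing is read from it because the choice of genes used these values.

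Wdr72 had a median of 75.9 normalised reads in 129 on HFD and 169.7 in 129 on chow. It fell by 1.12 ± 0.27 in 129 (adjusted p = 0.00174), lower at 6 of 6 times. The call was lost without replicate 1 (adjusted p = 0.0539) or replicate 2 (adjusted p = 0.0861). In B6 it had a median of 0.0095 on HFD and 1.37 on chow, and the difference was −0.81 ± 0.27 (adjusted p = 0.00833), between near-empty sets, and was lost with 5 added in place of 1 (adjusted p = 0.0844). It was also lost without replicate 1 (adjusted p = 0.0625) or replicate 3 (adjusted p = 0.0811).

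Ctse had a median of 388 normalised reads in 129 on HFD and 216.5 in 129 on chow. It rose by 0.82 ± 0.27 (adjusted p = 0.0253), higher at 6 of 6 times. The call was lost without replicate 2 (adjusted p = 0.302) or replicate 3 (adjusted p = 0.0555). In B6 the difference was 0.72 ± 0.27 (adjusted p = 0.0176) at a median of 2.5 on HFD and 1.05 on chow. That call was lost without replicate 2 (adjusted p = 0.0602), without replicate 3 (0.01, adjusted p = 0.984) and when B6 was fitted alone (adjusted p = 0.0993).

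Gm4737 rose in B6 by 1.0 ± 0.26 (adjusted p = 0.000913), higher at 5 of 6 times. Its B6 median was 15.1 normalised reads on HFD and 8.24 on chow, with 2 of 18 and 3 of 18 libraries at 0. In 129 the difference was 0.33 ± 0.26 (adjusted p = 0.429), higher at 6 of 6 times. When 129 was fitted alone this difference passed (adjusted p = 0.00324). Urml in B6 had a median of 429 normalised reads on HFD and 271 on chow and rose by 0.66 ± 0.15 (adjusted p = 0.000274), higher at 6 of 6 times. In 129 Urml stood at 0 in most libraries of both diets, and the difference was 0.14 ± 0.15 (adjusted p = 0.605). Mme, Zfp982, Nlrp12, Cd1d2 and Myom2 passed in neither strain, with differences between −0.23 (Cd1d2) and 0.73 (Nlrp12) in 129 and between −0.15 (Cd1d2) and 0.36 (Nlrp12) in B6. Myom2 passed in 129 with 5 added in place of 1 (0.34, adjusted p = 0.00713) and when 129 was fitted alone (adjusted p = 0.0146), and in B6, at levels near 0, without the 3 libraries with many low values (adjusted p = 0.0424). Nlrp12 passed in 129 without replicate 2 (1.13, adjusted p = 0.0216) and in B6 when B6 was fitted alone (adjusted p = 0.0487). Its 129 means (6.17 on HFD and 3.04 on chow) lay under the filter of 10, which Nlrp12 reached only through B6. Nothing is read from its call in 129. Mir6236, a microRNA entry of very variable level, moved with diet: its median was 1104.2 normalised reads in 129 on HFD and 2570.4 in 129 on chow, and 8291.8 in B6 on HFD and 222.5 in B6 on chow. With its level in the fit, 0 of the 10 genes passed for diet in B6 (adjusted p between 0.213 and 0.869 for the 4 named above), while 3 passed in 129. The B6 differences in that fit were 0.61 for Urml and 0.67 for Ctse, close to those above, and 0.21 for Gm4737 and −0.27 for Wdr72, which were smaller.

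**Figure D4:**
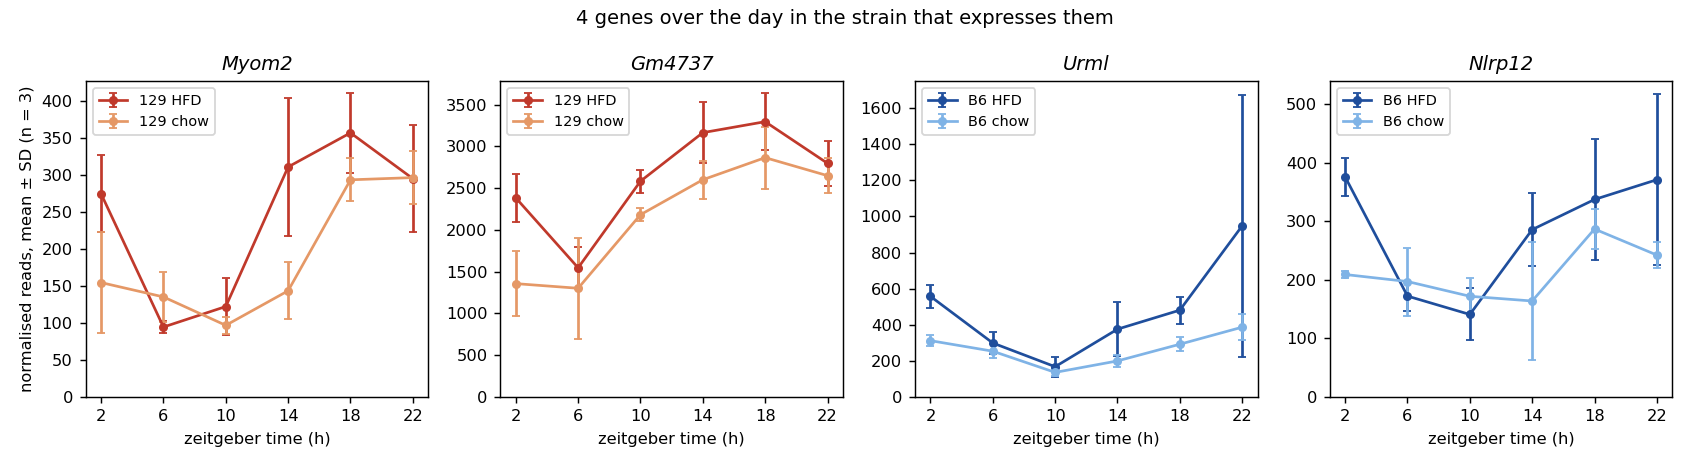
Mean and SD of 3 libraries in normalised reads at each zeitgeber time for Myom2 and Gm4737 in 129 and for Urml and Nlrp12 in B6, on HFD (dark) and chow (light). Myom2 was lowest at ZT6 on HFD and at ZT10 on chow, and Urml was lowest at ZT10 on both diets.

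The time of day was not used to pick the genes either, and a cosine with a period of 24 h was fitted within each set. In 129, Gm4737 and Myom2 passed on HFD (2 of 10, against 24.4% of all genes tested) and on chow (2 of 10, against 35.2%). Urml and Nlrp12 passed in B6 on HFD (2 of 10, against 1.36% of all genes tested), and Urml passed in B6 on chow (1 of 10, against 3.54%). In B6, Myom2, Ctse, Wdr72, Cd1d2 and Obp2a had means under 10 on both diets, and in 129 so did Urml, Zfp982 and Nlrp12. These genes reached the filter only through the other strain, so nothing is read from the counts of 10 beside these shares. Gm4737 passed in the Errg-Cre set (1 of 9 genes above the filter, against 17.9%) and Urml in the Esrrg LKO set (1 of 4, against 6.09%). Rhythms were not compared between sets by a test.

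Myom2 in 129 on HFD had 94.3 ± 8.41 normalised reads at ZT6 and 357 ± 53.7 at ZT18 (SD, n = 3 each). Its amplitude was 0.93 on the log2 scale with a peak at ZT19.4 (adjusted p = 8.25e-05). On chow it had 96.6 ± 11.2 at ZT10 and 296 ± 36 at ZT22 (SD, n = 3 each), with an amplitude of 0.80 and a peak at ZT20.5 (adjusted p = 0.000306). On HFD the means at ZT6 and ZT10 lay below those at the other times (274.4 at ZT2 and above), and on chow the means at ZT18 and ZT22 lay above those at the other times (154.4 at ZT2 and below). In the Errg-Cre set the amplitude was 0.31 (adjusted p = 0.367).

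Gm4737 in 129 on HFD had 1545.6 ± 245.6 normalised reads at ZT6 and 3296.7 ± 340.0 at ZT18 (SD, n = 3 each). The amplitude was 0.46 with a peak at ZT17.3 on HFD (adjusted p = 0.000252) and 0.65 with a peak at ZT16.8 on chow (adjusted p = 0.000779); the chow call was lost without replicate 2 (adjusted p = 0.0996). Its copy Ahcy gave 0.49 with a peak at ZT17.9 in 129 on HFD (adjusted p = 6.02e-05) and 0.83 with a peak at ZT17.2 on chow (adjusted p = 0.000773), so both members of the pair peaked within 1 h of each other. In Errg-Cre livers Gm4737 had an amplitude of 0.46 and a peak at ZT17.4 (adjusted p = 0.0269), and this call was lost without any one of the replicates.

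Urml had 167 ± 55.6 normalised reads at ZT10 and 948.1 ± 725.0 at ZT22 in B6 on HFD, and 135 ± 21.6 at ZT10 and 386 ± 73.4 at ZT22 on chow (SD, n = 3 each). One ZT22 library of B6 on HFD (replicate 3) held 1781.5, far above the others. That library also held the lowest values of Mme (75.7) and Zfp982 (68.0) in B6 on HFD, and the highest of Nlrp12 (516.9). The amplitude of Urml was 0.98 with a peak at ZT21.9 on HFD (adjusted p = 0.00858) and 0.66 with a peak at ZT22.8 on chow (adjusted p = 0.000448). In Esrrg LKO livers, in their own table, it was 0.58 with a peak at ZT19.9 (adjusted p = 0.022). The HFD call was lost without replicate 1 (adjusted p = 0.151) or replicate 3 (adjusted p = 0.0799), the chow call without replicate 1 (adjusted p = 0.132), and the Esrrg LKO call without any one of the replicates (adjusted p between 0.0571 and 0.168). Nlrp12 in B6 on HFD had 141 ± 44.5 normalised reads at ZT10 and 376 ± 33.1 at ZT2 (SD, n = 3 each). Its amplitude was 0.69 with a peak at ZT21.2 (adjusted p = 0.0311), a call lost without any one of the replicates (adjusted p between 0.146 and 0.341), and on chow it was 0.37 (adjusted p = 0.579).

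Promoters are shown for Urml, the member with a rhythm on both diets in B6, and Obp2a, the member with the largest diet effect. Promoters of RefSeq (GRCm38.p6) were found for 6 of the 10 genes, each with 250 bases before and 50 after the start of transcription. They were searched on both strands for the E-box CACGTG, the D-box TTANGTAA, the nuclear receptor half-site AGGTCA and the TATA box TATAAA, and capitals mark matches. The Urml promoter lies on the minus strand at chr13:68234682-68234981 and holds 1 half-site.
Urml: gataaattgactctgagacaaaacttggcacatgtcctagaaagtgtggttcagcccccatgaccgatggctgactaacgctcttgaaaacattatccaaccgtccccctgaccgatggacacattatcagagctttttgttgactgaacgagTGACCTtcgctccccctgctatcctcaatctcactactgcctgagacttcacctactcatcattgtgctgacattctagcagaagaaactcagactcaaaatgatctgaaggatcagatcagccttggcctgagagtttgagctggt
The Obp2a promoter lies on the plus strand at chr2:25699824-25700123 and holds 1 TATA box and 1 half-site.
Obp2a: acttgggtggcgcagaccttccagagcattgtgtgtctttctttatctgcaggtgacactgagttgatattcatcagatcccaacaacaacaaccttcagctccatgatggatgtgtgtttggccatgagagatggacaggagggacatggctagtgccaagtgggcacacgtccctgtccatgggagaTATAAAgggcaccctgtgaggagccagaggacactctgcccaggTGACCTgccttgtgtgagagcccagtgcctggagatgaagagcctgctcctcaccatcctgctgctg
Neither holds the E-box or the D-box in these letters. The promoters found for Gm4737, Mme, Zfp982 and Nlrp12 hold no half-site, no E-box and no D-box. That of Gm4737 holds 1 TATA box, and those of Mme, Zfp982 and Nlrp12 hold none. The 2 promoters shown are thus the only ones found with a half-site. Of 32851 mouse promoters of the same length, 16.3% hold the half-site, 13.6% the TATA box, 7.15% the E-box and 2.32% the D-box. A match describes letters only, and the sequence is that of the reference strain B6.

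The Errg-Cre and Esrrg LKO sets stand in tables of their own that were normalised apart, so their levels are set beside the wild-type levels with no test. Esrrg, the gene named in the labels, had a median of 25.9 normalised reads in Errg-Cre livers, against 26.0 in 129 on HFD, and 16.4 in Esrrg LKO livers, against 29.4 in B6 on HFD. Each value is that of 1 transcript, NM_001357534 in Esrrg LKO livers and NM_001243792 in the other sets. The medians of 16.4 and 29.4 thus belong to different transcripts. They do not show which exons the reads came from. All 10 genes except Zfp982 and Nlrp12 lay on the 129 side in all 18 Errg-Cre libraries, and all 10 lay on the B6 side in all 18 Esrrg LKO libraries, where the side is set by the nearer of the wild-type 129 and B6 medians on HFD, on the log2(value + 1) scale.

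In Errg-Cre livers, Gm4737 had 2083, 4587 and 6647 normalised reads (lowest, median and highest), Myom2 141, 322 and 783, and Cd1d2 80.8, 115 and 130.2. Mme had 3.52, 10.8 and 17.9 there, and Urml was at 0 in 15 of 18 libraries with a highest value of 1.05. In Esrrg LKO livers Gm4737 had 0.23, 6.79 and 11.1 normalised reads, Mme 298, 452 and 582, and Urml 111, 298 and 401. Myom2 stood at 0 in 18 of 18 Esrrg LKO libraries. The same sides were seen in 29 other genes that differ by at least 3 log2 between the wild-type strains on both diets without overlap: a median of 94.8% of them lay on the 129 side in Errg-Cre libraries (82.8% to 100%), and a median of 3.45% in Esrrg LKO libraries (0% to 6.9%). With genes that differ by at least 2 log2, the median in Errg-Cre libraries was 87.2%. Nnt had a median of 949.5 normalised reads in Errg-Cre livers and 335.2 in Esrrg LKO livers. These are values of transcript NM_001308506, while the wild-type values of Nnt given above are those of NM_008710.

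**Figure D5:**
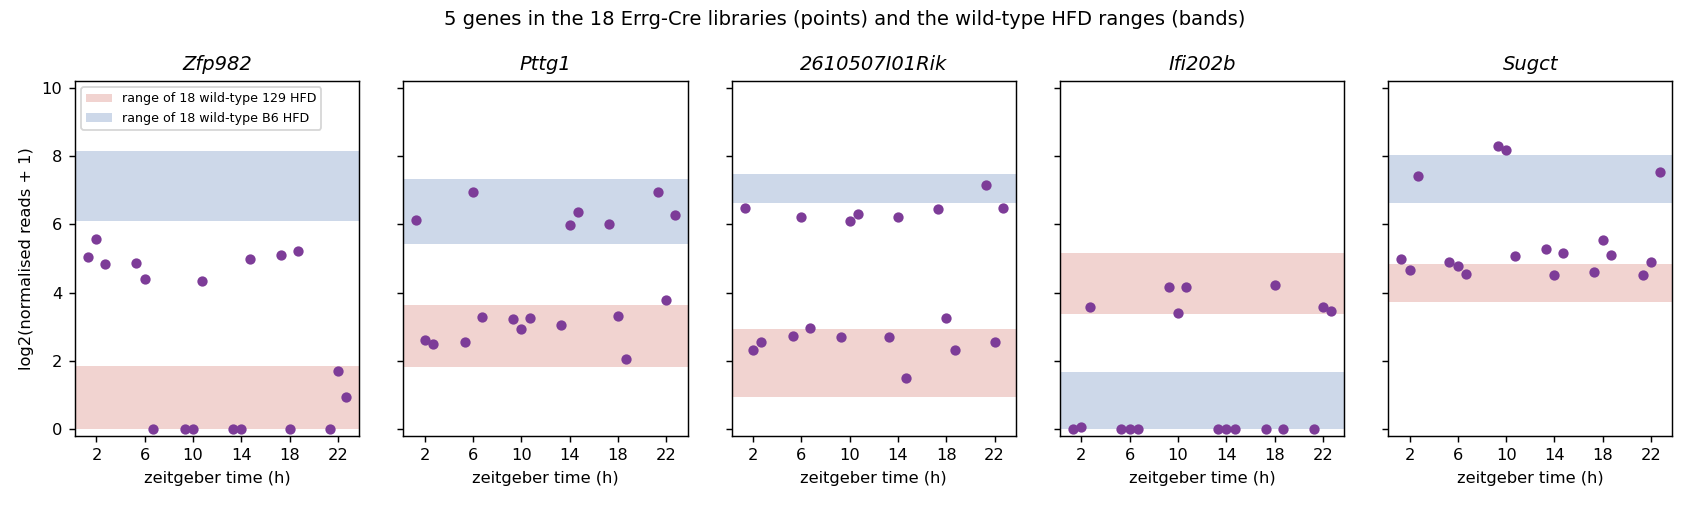
Levels of Zfp982 and 4 other genes as log2(normalised reads + 1) in each Errg-Cre library by zeitgeber time (points), with the range of the 18 wild-type libraries of 129 on HFD (red band) and of B6 on HFD (blue band); the tables were normalised apart. Zfp982 has 9 points between 19.3 and 46.2 normalised reads, under the blue band, and 9 at or under 2.26, within the red band.

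Zfp982 divided the Errg-Cre libraries. Its values at ZT2 were 32.1, 46.2 and 27.7 normalised reads, at ZT6 28.4, 20.2 and 0, and at ZT10 0, 0 and 19.3. At ZT14 they were 0, 0 and 30.5, at ZT18 33.4, 0 and 36, and at ZT22 0, 2.26 and 0.896. Thus 9 libraries lay between 19.3 and 46.2, below every wild-type B6 library on HFD (68 and above), and the other 9 lay at or under 2.26, within the 129 range. The B6 value of 68 came from the ZT22 library with the highest Urml value, and the next lowest was 135.8. Both levels were found at ZT6, ZT10, ZT14 and ZT18, while the 3 libraries of ZT2 were all high and the 3 of ZT22 all low. Nlrp12 lay on the B6 side in 1 Errg-Cre library, at 48.8.

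Of the 39 genes compared (the 10 and the 29), 29 were on the 129 side in every Errg-Cre library, and 6 were on the B6 side in at least 4 libraries: Zfp982 (9 of 18), Ifi202b (11 of 18), 2610507I01Rik (8 of 18), Pttg1 (7 of 18), Sugct (4 of 18) and Cyb561 (4 of 18). Of these, Ifi202b, an interferon-inducible gene of chromosome 1, is named by the rule that most libraries go with the other strain, and the others were chosen after their values were seen. Pttg1, the securin gene of chromosome 11, had 7 libraries between 62.3 and 122.6 normalised reads and 11 between 3.16 and 12.7. The wild-type ranges were 2.49 to 11.5 in 129 on HFD and 41.5 to 158.7 in B6 on HFD. 2610507I01Rik lies on the same chromosome, and 6 libraries were on the B6 side for both, 1 for Pttg1 alone, 2 for 2610507I01Rik alone and 9 for neither. Zfp982, on chromosome 4, was on the B6 side together with Pttg1 in 4 libraries, Zfp982 alone in 5, Pttg1 alone in 3 and neither in 6. In Esrrg LKO livers 36 of the 39 genes were on the B6 side in every library, and the exceptions were Serpina1e (8 of 18 on the 129 side), Igsf23 (3 of 18) and Aqp4 (2 of 18). The origin of the split in Errg-Cre livers was not tested.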

How the data were processed

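The 108 libraries were made from total RNA of male mouse livers (Trizol, column kit and TruSeq libraries, per the labels' protocols). The deposited signal values were quantile-normalised by the authors and give read numbers for RefSeq transcripts; the submitters' processing notes name STAR, HOMER and mm10, and versions are not given in the sources used here. Within a table all libraries have the same sorted values and the same total (10837743 in the wild-type table, 12305608 in the one of Errg-Cre, 10346206 in the one of Esrrg LKO), so depth is unknown and a change shared by most genes is hidden. Columns of the Esrrg LKO table carry Errg-Cre names and were tied to samples through the table named in each sample's description, with time and replicate number. A further 18 columns matched no label.

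Values were taken as log2(value + 1). Each symbol was represented by its transcript of highest mean, if that reached 10: 11287 wild-type genes, 11622 in the Errg-Cre table and 11946 in the Esrrg LKO table. Linear models with 24 group means, and cosine fits within a set (period 24 h, moderated F test), used limma 3.58.1 in R 4.3.3 with Benjamini-Hochberg adjustment over all genes and a threshold of 0.05, and were checked on simulated data. Relatives were found with BLAST 2.17.0 (blastn) over GENCODE M21 transcripts, at 500 or more aligned bases, since no protein table was at hand. The gene members and lists were chosen with earlier results of these data known. Genes were named by rule: the 10 members, the 3 nearest genes on either side, the closest relative, the genes most like each member, up to 4 listed genes with the largest strain effect on both diets, and genes whose libraries go with the other strain; others were chosen after their values were seen. Alternatives were another pseudocount, no filter, sums over transcripts, leaving out replicates or 3 libraries with many low values, a replicate block, Mir6236 as covariate, and fits on 36 libraries.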

Additional observations from a re-analysis of the deposited data

Results flagged for a closer look

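Obp2a stood out because its diet effect in 129 minus that in B6 was 2.69 ± 0.48 on the log2(value + 1) scale. This equals the strain difference on HFD minus that on chow, values that were used to choose the genes, so it is a description with no test. HFD levels were above chow levels at 6 of 6 times in 129 and at 3 of 6 times in B6. The B6 levels were between 0 and 11.5 normalised reads on both diets, with means under the filter of 10 that the gene reached only through 129.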

How the results depend on the processing

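Of the single-gene results under the alternatives, 1066 kept their direction and side of the threshold, 66 fell below it, 12 newly passed and 17 changed sign; none of the sign changes had an adjusted p below 0.05. With transcripts summed, Urml had −0.069 for diet in 129 and Cd1d2 0.014 for diet in B6. Leaving out 1 replicate gave −0.15 to 0.042 for Mme and −0.071 to 0.074 for Zfp982 for diet in B6. For the interaction it gave −0.092 to 0.11 for Myom2, −0.46 to 0.85 for Ctse, −0.796 to 0.086 for Wdr72 and −0.20 to 0.13 for Cd1d2. Without the 3 libraries with many low values, diet in B6 was −0.031 for Zfp982 and 0.10 for Cd1d2, and the interaction was −0.00090 for Myom2. With Mir6236 as covariate, diet in B6 was 0.72 for Mme and 0.30 for Cd1d2, and the interaction was 0.26 for Gm4737, −0.66 for Mme and −0.0012 for Zfp982.

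Counts of all genes with Mir6236 as covariate were 1445 in place of 5976 for strain on chow, 564 in place of 6792 for diet in B6 (0 in place of 4 of the 10 genes) and 14 in place of 3881 for the interaction. Of the 10 genes, 5 in place of 3 passed for diet in 129 when 129 was fitted alone. For the interaction, 4 in place of 1 lay past 0.05 with a pseudocount of 5 and 2 with transcripts summed. The choice of genes used the values of the interaction, so its counts among the 10 are a description with no test. Nothing is read from them. With no filter the rhythm counts were 32 in place of 154 in B6 on HFD (0 of the 10 genes in place of 2) and 1201 in place of 2076 in Errg-Cre (0 in place of 1), and 0 in place of 1 of the 10 genes passed in Esrrg LKO. Leaving out 1 replicate gave 2077 to 3280 genes for strain on HFD, 556 to 1775 for diet in 129, 1296 to 3455 for the interaction, 798 to 2326 for rhythm in 129 on HFD and 438 to 2161 in 129 on chow (1 to 2 of the 10 genes). It gave 16 to 44 in B6 on HFD (0 to 1 of the 10), 34 to 249 in B6 on chow (0 to 1), 368 to 495 in Errg-Cre (0 of the 10) and 166 to 481 in Esrrg LKO (0 to 1). The median share on the 129 side was 87.2% in place of 94.8% for Errg-Cre with genes of at least 2 log2, and between 0% and 3.45% for Esrrg LKO without 1 replicate. Apart from fewer libraries in the fits that leave some out, the cause was not tested.

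Libraries with the same replicate number did not deviate alike across genes. The median correlation of their deviations was 0.00494, against −0.00277 between libraries with other numbers, and the lowest was −0.668. Of the libraries, 30.6% were closest to one with their own number. What a number marks is not in the labels, and whether it marks a shared day or litter was not tested. With a replicate block 2062 genes passed for diet in 129 (2071 without it), 6770 for diet in B6 (6792) and 3877 for the interaction (3881). The counts among the 10 genes stayed at 3, 4 and 1, and the one for the interaction is a description only. The chow call of Zfp991 was lost under the block (adjusted p = 0.0538). Sequencing depth is unknown, so the counting error of low values cannot be given.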
